A study of Mus musculus with 8 samples.

Results

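The circadian clock genes in mouse lung were described over wild type and DDAH1-transgenic mice given PBS or house dust mite (HDM). The 10 genes, Arntl, Clock, Per1, Per2, Per3, Cry1, Cry2, Nr1d1, Nr1d2 and Dbp, were chosen by name from the 23469 genes of the count table, as the core of the clock and 1 of its outputs, and all 10 had a row. All 10 passed the filter on low counts in every comparison.

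Wild type C57BL/6 mice and DDAH1-transgenic mice on the same background received 50 microliters of PBS, or 100 micrograms of HDM extract in that volume, into the trachea 3 times a week for 3 weeks, and lungs were taken 24 hours after the last challenge. The groups are WP (wild type, PBS), TP (transgenic, PBS), WH (wild type, HDM) and TH (transgenic, HDM). DDAH1 breaks down asymmetric dimethylarginine, an inhibitor of nitric oxide synthases. The promoter of the transgene and the age of the mice are not given in the sources used here. The RNA of the 4 mice of a group was pooled and sequenced as 2 libraries, so each SD here is the spread between 2 libraries of 1 pool and each p-value covers that technical spread and no difference between mice. The time of day of harvest is not given either, so a shift in the phase of the clock and a change of level at an unchanged phase cannot be told apart.

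The clock is a loop of transcription that runs in nearly every cell, the cells of the airway included. BMAL1 (encoded by Arntl) and CLOCK bind as a pair to E-box sequences and switch on the Period and Cryptochrome genes, whose proteins then return to the nucleus and block that pair. The same pair switches on Nr1d1 and Nr1d2, which encode the nuclear receptors REV-ERB alpha and REV-ERB beta, and these repress Arntl through RORE sequences that the ROR receptors use to activate it. Dbp is another target of the pair and encodes a factor that activates genes through D-box sequences. In a running loop Arntl therefore peaks at about the opposite time of day from Nr1d1, Dbp and the Period genes. Per1 is also switched on directly by glucocorticoids.

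In RefSeq (mouse build GRCm38.p6, or mm10) the activators are Arntl (Entrez 11865) at chr7:113178471-113314126 on the plus strand and Clock (Entrez 12753) at chr5:76209868-76305603 on the minus strand. The Period genes are Per1 (Entrez 18626) at chr11:69095108-69109965 on the plus strand, Per2 (Entrez 18627) at chr1:91415977-91459351 on the minus strand and Per3 (Entrez 18628) at chr4:150997018-151044707 on the minus strand, and the Cryptochrome genes Cry1 (Entrez 12952) at chr10:85131700-85185054 on the minus strand and Cry2 (Entrez 12953) at chr2:92403646-92434085 on the minus strand. The REV-ERB genes are Nr1d1 (Entrez 217166) at chr11:98767932-98775377 on the minus strand and Nr1d2 (Entrez 353187) at chr14:18204056-18239106 on the minus strand, and the output gene is Dbp (Entrez 13170) at chr7:45705100-45710203 on the plus strand.

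The DNA words of this loop were searched on both strands in the RefSeq promoter windows of that build, from 250 bases before to 50 bases after a transcript start, which were at hand for 9 of the 10 genes, Per2 being the exception. The E-box was read as CACGTG, the D-box as TTATGTAA or TTACGTAA, and the RORE as TAGGTCA or TGGGTCA. Windows of 4 of the 9 genes held a word, and no 2 words overlapped. The E-box stood before Per1 and Cry1, the D-box was found at a pair of places before Per3, and the RORE lay just after a start of Arntl. Of all 27025 genes with windows, 8.09% held the E-box, 1.23% a D-box and 7.35% a RORE. A match is a description of the sequence, and its absence says only that these letters are not in the window. The 250 bases before the start of Per1, Cry1 and Per3, and 30 bases around the RORE of Arntl, are shown because they hold matches. The Per1 start used here lies inside the span of the gene, downstream of its outermost start. The words are in capitals and each sequence reads 5′ to 3′ on the strand of its gene.
Per1 (chr11:69098699-69098948, plus strand, start at 69098949, E-box 166 bases before it): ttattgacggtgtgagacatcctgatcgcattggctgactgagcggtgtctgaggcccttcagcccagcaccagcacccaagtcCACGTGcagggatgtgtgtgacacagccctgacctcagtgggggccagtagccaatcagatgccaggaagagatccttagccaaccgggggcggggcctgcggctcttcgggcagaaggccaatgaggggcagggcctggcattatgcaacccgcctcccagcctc
Cry1 (chr10:85185055-85185304, minus strand, start at 85185054, E-box 60 bases before it): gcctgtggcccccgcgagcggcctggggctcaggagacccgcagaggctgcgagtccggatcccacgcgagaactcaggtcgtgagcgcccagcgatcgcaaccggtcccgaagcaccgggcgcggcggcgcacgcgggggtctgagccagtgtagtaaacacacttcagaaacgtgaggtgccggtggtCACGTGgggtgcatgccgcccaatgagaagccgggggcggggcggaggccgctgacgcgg
Per3 (chr4:151044666-151044915, minus strand, start at 151044665, D-boxes 205 and 158 bases before it): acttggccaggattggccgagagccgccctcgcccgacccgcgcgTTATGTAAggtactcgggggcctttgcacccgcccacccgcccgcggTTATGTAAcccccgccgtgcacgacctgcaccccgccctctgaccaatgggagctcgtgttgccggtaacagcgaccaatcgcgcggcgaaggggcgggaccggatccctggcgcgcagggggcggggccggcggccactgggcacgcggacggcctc
Arntl (chr7:113207530-113207559, plus strand, start at 113207511): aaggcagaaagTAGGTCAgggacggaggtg

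The libraries held 5694928 (TH replicate 1) to 11929374 counts, and 3 counts, taken as the floor of detection, stood for 0.232 to 0.449 CPM, a count scaled to the size of its library. The ribosomal RNA gene Rn45S took 14.8% to 21.8% of the counts in the WP, WH and TP libraries and 8.58% and 9.37% in the TH libraries. Ddah1 was at 41.0 ± 9.50 CPM (SD, n = 2) in WP, 65.4 ± 16.4 in TP, 43.9 ± 1.15 in WH and 34.1 ± 1.08 in TH. The log2 fold change of Ddah1 was 0.66 (SE 0.26, adjusted p = 0.358) for TP against WP and -0.32 (SE 0.29, adjusted p = 0.637) for TH against WH, so a rise of the mouse gene was called in neither transgenic pool. Whether the transgene has the mouse sequence is not given in the sources used here, so its reads may be outside this count, and groups are named by their labels throughout. Xist, transcribed from the inactive X chromosome, lay between 11.3 and 20.8 CPM in the PBS libraries and between 2048 and 3040 CPM in the HDM libraries, and the Y-linked Ddx3y between 58.7 and 69.0 CPM and between 0.179 and 0.301 CPM. HDM and the sex pattern of the pools therefore cannot be told apart. In whole lung, fewer cells of a type and less RNA per cell cannot be told apart.

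Levels were compared between genes as CPM per kilobase of transcript, and as plain CPM, on 1 TMM scale over the 8 libraries, within a gene. The paper describes the counts as reads over the coding region of a gene, so the order between genes depends on the length used. Per kilobase, Nr1d1 had the highest mean over the 8 libraries (35.6), followed by Clock (14.3), Per1 (14.2), Nr1d2 (13.4), Cry2 (8.15), Arntl (6.47), Per2 (4.57), Per3 (3.87), Dbp (3.64) and Cry1 (3.24). The order of the last 5 genes, from Arntl down, was the same per kilobase of coding sequence, on which Clock (54.2) and Nr1d1 (52.5) traded places, and Nr1d2 (36.2) and Cry2 (18.3) stood above Per1 (17.1). Dbp had the widest relative range of the 10 genes, from 1.26 to 7.99 CPM per kilobase over the libraries, and Nr1d1 ranged from 16.3 to 64.4.

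For the activators, no call was made in any of the comparisons below with all libraries in the fit. Arntl was at 27.2 and 18.3 CPM in WP, 19.7 and 21.9 in TP, 20.0 and 16.3 in WH, and 15.1 and 15.5 in TH (replicate 1 before replicate 2, here and in all values given by library). The 2 WP libraries of Arntl stood further apart than the means of any neighbouring groups, and only TH lay below all other libraries. Clock was at 154 and 180 CPM in WP, 157 and 159 in TP, 108 and 131 in WH, and 98.1 and 125 in TH. Both PBS groups of Clock lay above both HDM groups, with overlap within each treatment.

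Of the repressors, Per1 showed a stepwise order in which no group overlapped the next. Its levels were 93.3 and 91.1 CPM in WP, 88.1 and 73.4 in TP, 45.6 and 61.7 in WH, and 40.7 and 36.2 in TH. Per2 followed another order, with TP highest. It was at 18.4 and 22.9 CPM in WP, 33.5 and 48.4 in TP, 24.9 and 29.8 in WH, and 14.1 and 21.4 in TH, with overlap between the last 2 in rank, WP and TH. Per3 stayed between 19.0 and 28.1 CPM in all libraries, with 19.0 and 19.1 in WH, and its other 3 groups overlapped their neighbours in rank. Cry1 lay between 7.18 and 17.2 CPM, the upper end being TH replicate 1, and TH replicate 2 was at 8.67. Cry2 was at 38.3 and 39.7 CPM in WP and 32.3 and 38.6 in TP, against 25.4 and 30.8 in WH, while the TH libraries were at 36.2 and 18.0 and spanned the WH range.

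The REV-ERB genes had different orders of the groups. Nr1d1 was at 117 and 126 CPM in WP, 125 and 175 in TP, 71.7 and 63.0 in WH, and 44.3 and 52.4 in TH. All PBS libraries of Nr1d1 lay above all HDM libraries, and TH lay below WH. Nr1d2 was at 53.3 and 56.2 CPM in WP, 64.7 and 55.9 in TP, 44.4 and 44.1 in WH, and 108 and 73.6 in TH. TH was thus the lowest group for Nr1d1 and the highest for Nr1d2. Dbp, the output gene, was low throughout, at 5.12 and 8.57 CPM in WP, 4.69 and 8.24 in TP, 3.48 and 2.31 in WH, and 14.7 and 6.43 in TH. Its WH libraries lay below all others, and the 2 TH libraries differed from each other by more than any other group's.

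**Figure D1:**
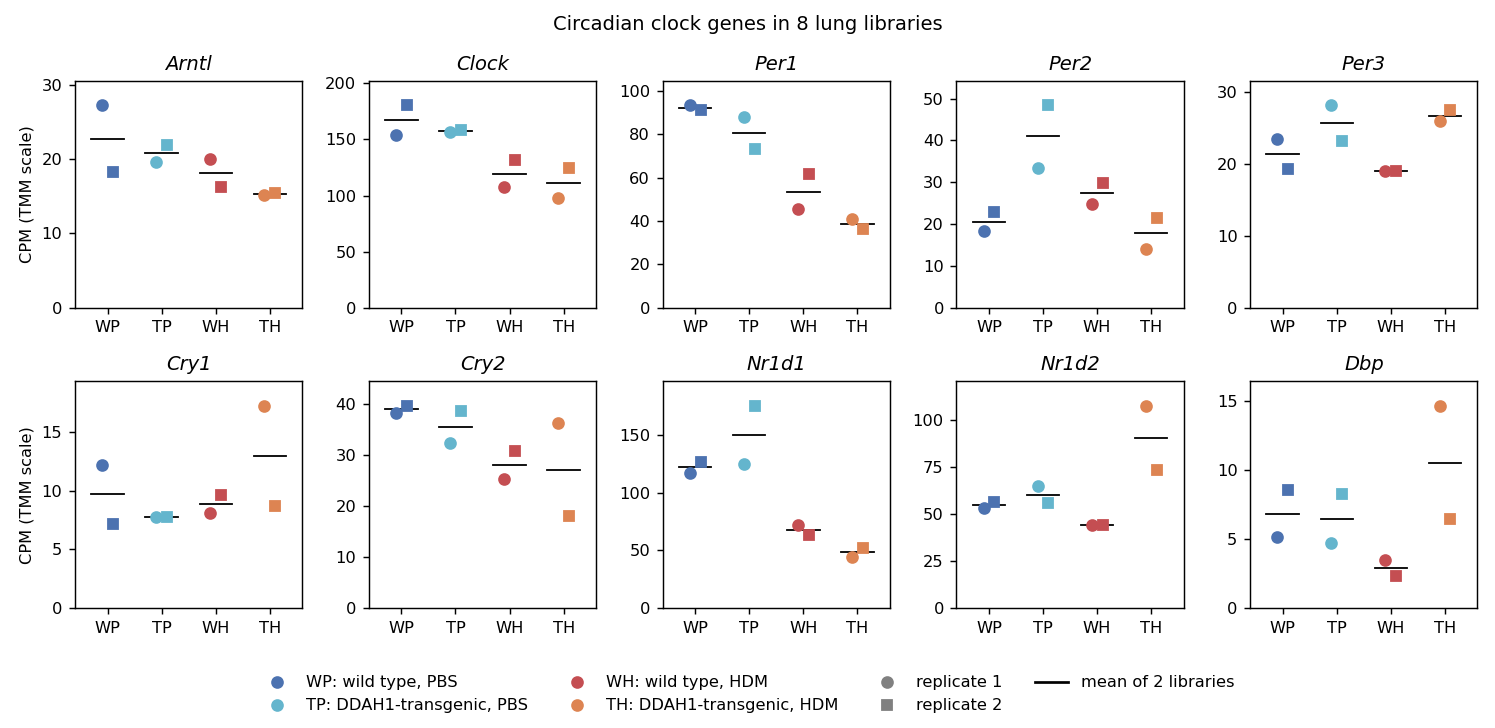
CPM (linear axis from 0, TMM scale) of each clock gene by group, with a circle for replicate 1, a square for replicate 2 and a line at the mean of the 2 libraries. Per1 and Nr1d1 are lower in both HDM groups, Per2 is highest in TP, and Nr1d2 and Dbp are highest in TH, where replicate 1 of Dbp stands at 14.7 CPM and replicate 2 at 6.43.

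The genotype was compared first under PBS. None of the 10 clock genes was called for TP against WP (edgeR's quasi-likelihood test, adjusted p under 0.05), where 0.657% of the 14926 genes tested were called. By DESeq2 the count was also 0, and 1 gene, Per2, had an unadjusted p under 0.05 in edgeR, a level that 9.98% of all genes passed. The log2 fold change was above 0 for 4 genes and below 0 for 6, with a median of -0.09 beside 0.00 over all genes tested. Per2 was 1.97-fold higher in TP (log2 0.98, SE 0.30, adjusted p = 0.203), and both TP libraries lay above both WP libraries. Without TP replicate 1, the lower of the pair, it was called (log2 1.23, adjusted p = 0.0238). Per1 and Per2 were the 2 members whose groups did not overlap, in opposite directions, where 40.3% of all genes did not overlap, 20% higher and 20.4% lower. The other log2 fold changes lay between -0.33 (Cry1, SE 0.51) and 0.29 (Nr1d1, SE 0.18).

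Under HDM the genotype comparison also called none of the 10, with 2.44% of 15191 genes called in all. Nr1d2 was called in 5 of the alternatives that kept all libraries. Adjusted p was 0.00536 without the low-count filter, where 1055 of 18554 genes were called, and 0.0313 with the replicate block (625 of 15191). It was 0.0186 with all 8 libraries in the fit (771 of 15868) and 0.0131 with a length offset and the block (464 of 15191). DESeq2 gave 0.0102 (921 of 10751 genes called) and no adjusted p for Dbp, so it called 1 of 9 genes. Nr1d2 was 2.10-fold higher in TH than in WH (log2 1.07, SE 0.27, adjusted p = 0.0673), and Dbp 3.72-fold (log2 1.89, SE 0.70, adjusted p = 0.1996). These 2 had an unadjusted p under 0.05, a level passed by 16.2% of all genes. Both values depended on which TH library was kept. Without TH replicate 1, the library with the fewest counts, the log2 fold change was 0.75 for Nr1d2 and 1.17 for Dbp. Without TH replicate 2 it was 1.33 and 2.38. Per1 and Nr1d1 lay lower in TH in every library, at log2 -0.44 (SE 0.29, adjusted p = 0.498) and -0.44 (SE 0.26, adjusted p = 0.443), and Per2 at -0.58 (SE 0.38, adjusted p = 0.488). Per3 was at 0.52 (SE 0.36), Cry1 at 0.58 (SE 0.53), Arntl at -0.21 (SE 0.41), Clock at -0.06 (SE 0.22) and Cry2 at -0.01 (SE 0.40). In all, 3 members lay higher without overlap, 4 lower and 3 overlapped, in a comparison where 48.2% of all genes did not overlap, 23.2% higher and 25% lower. The median of the 10 was -0.04 beside 0.01 over all genes, and 0.19 beside 0.06 with an offset for transcript length.

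HDM against PBS gave calls in both genotypes. In wild type mice 2 of the 10 genes were called lower for WH against WP and none higher, where 2.3% of the 15123 genes tested were called lower, 4.44% higher and 6.74% in either direction. Nr1d1 fell to 0.552 of its PBS level (log2 -0.86, SE 0.18, adjusted p = 0.0102) and Per1 to 0.581 (log2 -0.78, SE 0.21, adjusted p = 0.0387). Nr1d1 was no longer called without WP replicate 2 (adjusted p = 0.0783). Per1 lost its call without WP replicate 1 (adjusted p = 0.137), WP replicate 2 (0.128) or WH replicate 1 (0.126), in the fit of all 8 libraries (0.0727) and with the length offset (0.0612). Clock was at log2 -0.48 (SE 0.17, adjusted p = 0.109) and was called without WH replicate 2 (adjusted p = 0.0218). Dbp was at -1.24 (SE 0.68, adjusted p = 0.342), Cry2 at -0.47 (SE 0.27), Arntl at -0.33 (SE 0.35), Nr1d2 at -0.31 (SE 0.23), Per3 at -0.17 (SE 0.34) and Cry1 at -0.12 (SE 0.50). Per2 was the single gene above 0, at 0.41 (SE 0.32, adjusted p = 0.542). The median was -0.40 beside 0.02 over all genes tested, and 7 members lay lower without overlap and 1 higher, where 49.8% of all genes did not overlap, 24.7% lower and 25% higher.

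In DDAH1-transgenic mice 3 of the 10 genes were called lower for TH against TP and none higher, where 5.35% of the 15086 genes tested were called lower, 8.43% higher and 13.8% in either direction. Nr1d1 fell to 0.327 of its PBS level (log2 -1.61, SE 0.25, adjusted p = 0.00157), Per1 to 0.484 (log2 -1.05, SE 0.27, adjusted p = 0.0235) and Per2 to 0.441 (log2 -1.18, SE 0.36, adjusted p = 0.04996). A fit with a library left out leaves 1 library in a group. In such fits log2 fold changes ranged from -1.84 to -1.35 (Nr1d1), -1.18 to -0.92 (Per1) and -1.52 to -0.90 (Per2). Each of the 3 lost its call in at least 1 of these fits, which hold fewer samples. Without TH replicate 2, Clock (log2 -0.67, adjusted p = 0.04585) and Nr1d2 (log2 0.85, adjusted p = 0.0263) were called beside these 3. Clock was at -0.48 (SE 0.21, adjusted p = 0.161), Arntl at -0.42 (SE 0.39) and Cry2 at -0.36 (SE 0.38), while Per3 was at 0.08 (SE 0.34), Nr1d2 at 0.61 (SE 0.27, adjusted p = 0.162), Dbp at 0.73 (SE 0.63) and Cry1 at 0.76 (SE 0.54). The median of the 10 was -0.39 beside 0.03 over all genes (-0.06 beside 0.10 with the length offset), and 5 members lay lower without overlap and 2 higher, where 56.8% of all genes did not overlap, 28% lower and 28.8% higher. The HDM comparisons share no library with each other, but each shares its groups with the genotype comparisons.

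**Figure D2:**
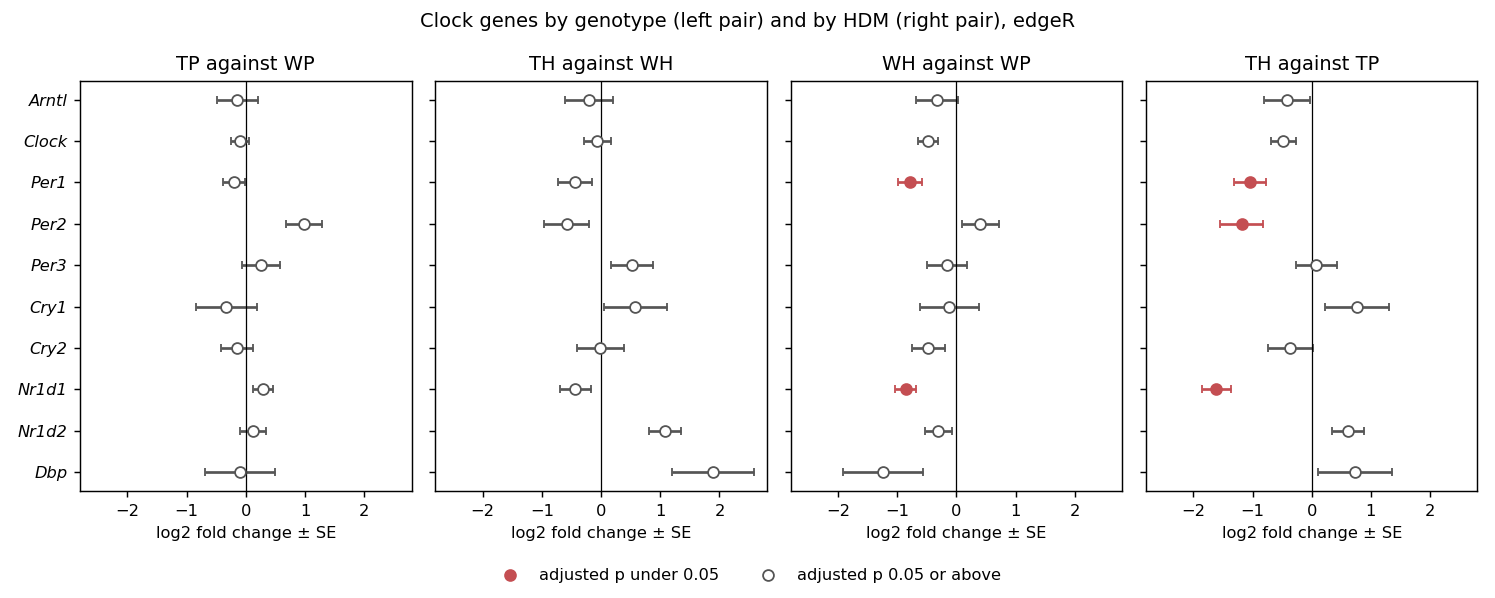
Log2 fold change of each clock gene (x axis) with its standard error as a bar, in the genotype comparisons TP against WP and TH against WH and the HDM comparisons WH against WP and TH against TP. Filled points passed an adjusted p under 0.05 in edgeR. Nr1d1 and Per1 are filled and left of 0 in both HDM panels, Per2 in TH against TP only, and no point is filled in the genotype panels.

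The interaction asks whether the difference between genotypes under HDM was itself different from that under PBS, or, equally, whether HDM changed the genotypes differently. None of the 10 genes was called by edgeR, where 1.76% of 15868 genes were, and 4 had an unadjusted p under 0.05, a level passed by 14.7% of all genes. By DESeq2, 1 was called, Per2, where 689 of 14431 genes were called in all. Per2 had the smallest p, with a log2 difference of -1.60 (SE 0.49, adjusted p = 0.110). It was called by DESeq2 (-1.61, adjusted p = 0.0301) and without TH replicate 2 (-1.95, adjusted p = 0.0398). Nr1d1 was at -0.78 (SE 0.30, adjusted p = 0.233), Nr1d2 at 0.89 (SE 0.35, adjusted p = 0.226) and Dbp at 1.93 (SE 0.91, adjusted p = 0.333). The call of Per2 in TH against TP and its absence in WH against WP are therefore not shown to differ by edgeR's test.

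Ratios within a library do not depend on its scale, but they can carry the trend of fold changes with transcript length given below. They compare groups, not the levels of the 2 genes, whose lengths differ, and are given as descriptions, without a test. The log2 ratio of Nr1d1 to Arntl, genes of opposite phase in a running clock, was 2.45 ± 0.48 (SD, n = 2) in WP, 2.84 ± 0.24 in TP, 1.90 ± 0.08 in WH and 1.66 ± 0.15 in TH. Every PBS library of that ratio lay above every HDM library. The ratio of Per1 to Arntl was 2.05 ± 0.38 in WP, 1.96 ± 0.29 in TP, 1.55 ± 0.52 in WH and 1.33 ± 0.14 in TH, with overlap between PBS and HDM libraries. The ratio of Dbp to Arntl had another order, and was -1.75 ± 0.93 in WP and -1.74 ± 0.47 in TP, lower in WH (-2.67 ± 0.21) and higher in TH (-0.66 ± 0.87). The ratio of Per2 to Arntl was -0.12 ± 0.63 in WP, 0.96 ± 0.27 in TP, 0.60 ± 0.39 in WH and 0.18 ± 0.41 in TH, so its mean was higher with HDM in wild type and lower in transgenic mice, with overlap in wild type. The ratios of Nr1d2 and Per3 to Arntl were highest in TH, at 2.54 ± 0.41 and 0.80 ± 0.04, against means of 1.29 to 1.54 and -0.07 to 0.30 in the other groups. The ratio of Nr1d1 to Nr1d2, which peak close together in a running clock, was 1.15 ± 0.02 in WP, 1.30 ± 0.49 in TP and 0.60 ± 0.12 in WH, and -0.89 ± 0.56 in TH. The TH libraries, at -1.28 and -0.49, lay below the other 6, at 0.51 to 1.65.

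**Figure D3:**
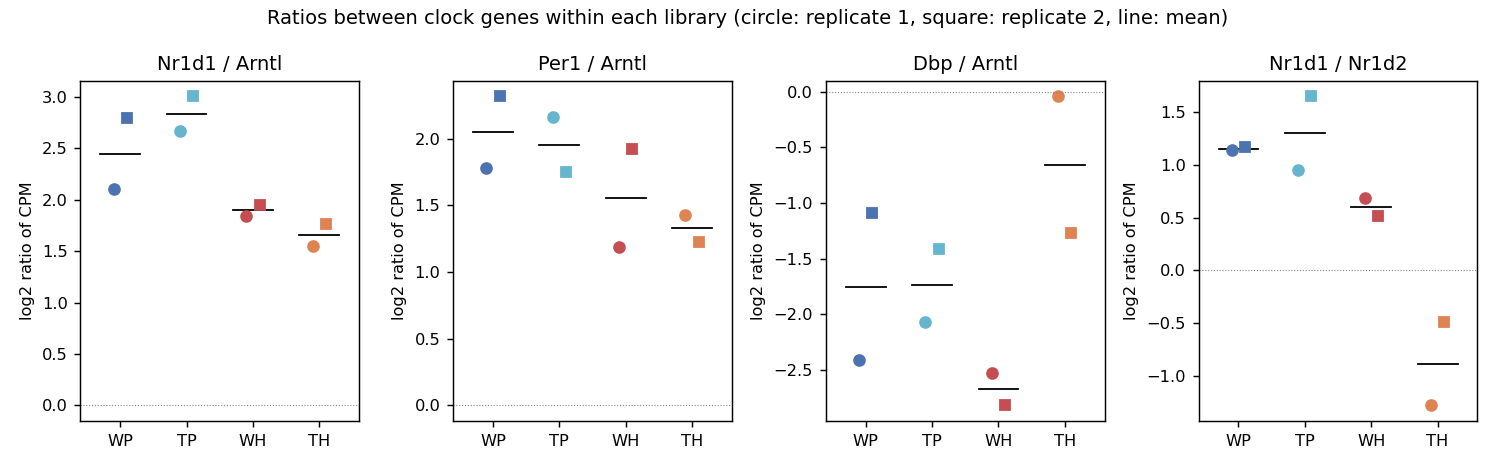
Log2 ratio of CPM between pairs of clock genes in each library (y axis, each panel with its own range), by group, with a circle for replicate 1, a square for replicate 2 and a line at the mean. The Nr1d1 to Arntl ratio is lower in the 4 HDM libraries, and the Nr1d1 to Nr1d2 ratio is lowest in the TH libraries, at -1.28 and -0.49.

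Some clock genes share exon bases with a neighbour on the opposite strand, and the use of strand in the counting is not stated, so reads from shared bases that were counted cannot be told apart. Dbp shared 539 exon bases (18.0%) with Sphk2, a sphingosine kinase gene, and 213 of its 975 coding bases lay in exons of that gene. Of the 50-base stretches of the Dbp transcript, 27.5% also occurred in transcripts of Sphk2. Nr1d1 shared 263 exon bases (8.5%) with Thra, the thyroid hormone receptor alpha gene, and 197 of its 1845 coding bases were coding bases of Thra too. Thra, like Nr1d1, was lowest in TH. It was at 40.7 and 37.8 CPM in WP, 28.4 and 44.1 in TP, 27.7 and 16.0 in WH, and 8.24 and 11.1 in TH. Thra was called lower for TH against TP (log2 -1.88, SE 0.40, adjusted p = 0.00907), but not without TP replicate 1 (adjusted p = 0.0510) or TP replicate 2 (0.161). For WH against WP it was at -0.84 (SE 0.32, adjusted p = 0.148), and it was called without WH replicate 1 (log2 -1.30, adjusted p = 0.0101). Sphk2 was at 21.1 and 24.8 CPM in WP, 14.4 and 24.2 in TP, 9.92 and 26.3 in WH, and 31.0 and 21.4 in TH, with log2 0.57 (SE 0.48, adjusted p = 0.604) for TH against WH, which was 0.0115 without WH replicate 1 and 1.45 without WH replicate 2, 0.26 without TH replicate 1 and 0.83 without TH replicate 2. The exons of Cry2 overlapped those of D930015M05Rik over 295 bases (4.7%), 149 of them coding in Cry2, and that gene had at most 8.24 CPM. Arntl overlapped Gm45355, which has no row in the table, over 33 bases. Of the 50-base stretches of the Nr1d2 transcript, 6.0% also occurred in the processed pseudogene AC170187.1. The part of these neighbours in the results was not tested.

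Fold changes also varied with transcript length, most where TH was compared. In WH against WP the median log2 fold change was 0.16 over genes shorter than 2 kb and -0.09 over genes longer than 5 kb, and in TP against WP 0.00 and 0.02. In TH against WH these medians were 0.37 and -0.21, and in TH against TP 0.55 and -0.33. The clock transcripts run from 1837 bases (Dbp) to 9744 (Clock), of which 975 and 2565 are coding. The offset used the length of the transcript, not of its coding sequence. With an offset for length, which moved the median of all genes from 0.03 to 0.10 in TH against TP, Nr1d1 was at log2 -1.60 and was called in that comparison (adjusted p = 0.00285). Per1 (-0.77, adjusted p = 0.0934) and Per2 (-0.80, adjusted p = 0.198) were not called with the offset, and Clock turned from -0.48 to 0.06. In TH against WH the offset took Nr1d2, a transcript of 4663 bases, from 1.07 to 1.24 (adjusted p = 0.0648), Dbp from 1.89 to 1.77 (adjusted p = 0.281) and Clock from -0.06 to 0.27.

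**Figure D4:**
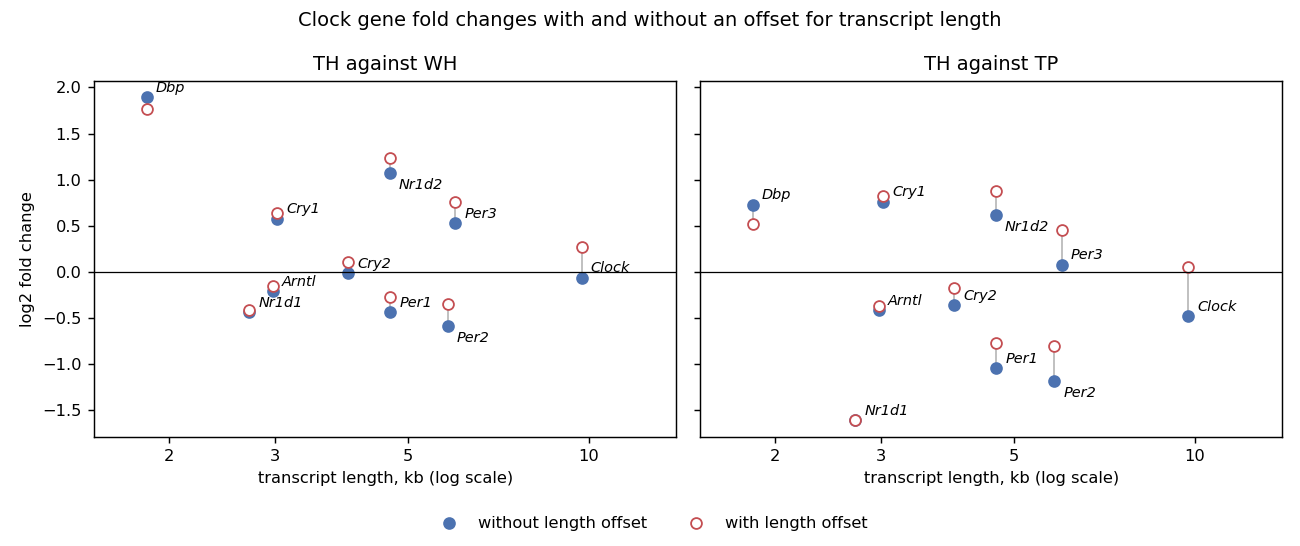
Log2 fold change of each clock gene (y axis) against its transcript length in kb (log scale) for TH against WH and TH against TP, without (filled) and with (open) an offset for transcript length, the 2 values of a gene joined by a line. The offset lifts Clock, the longest transcript at 9744 bases, above 0 in both panels and moves Nr1d1 from -1.61 to -1.60 in TH against TP.

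Among 19 other genes of the clock (its kinases, ubiquitin ligases, ROR receptors and E-box or D-box factors), none was called between genotypes, and the interaction called none. In WH against WP, 17 were tested and 1 was called, higher, where 4.44% of all genes were. The called gene was Bhlhe40, a repressor that competes for the E-box, which rose from 51.5 and 52.6 CPM in WP to 156 and 143 in WH (log2 1.52, SE 0.17, adjusted p = 7.26e-05). In TH against TP, 18 were tested, with 2 called higher and 1 lower, where 8.43% and 5.35% of all genes were, so that in both comparisons the counts were near those shares. Bhlhe40 rose from 45.5 and 51.8 CPM in TP to 82.5 and 118 in TH (log2 1.06, SE 0.26, adjusted p = 0.0198), and was not called without TP replicate 1 (adjusted p = 0.207), TP replicate 2 (0.173) or TH replicate 2 (0.0681). Its paralog Bhlhe41 rose from 10.9 and 12.0 CPM to 70.7 and 33.8 (log2 2.21, SE 0.41, adjusted p = 0.00403), with adjusted p = 0.0938 without TP replicate 1 and 0.0949 without TP replicate 2. Rora, the ROR receptor gene that opposes REV-ERB at the RORE, fell from 37.6 and 27.0 CPM in TP to 6.59 and 9.21 in TH (log2 -2.003, SE 0.41, adjusted p = 0.00779), with adjusted p = 0.110 without TP replicate 1 and 0.0627 without TP replicate 2. The median log2 fold change of this list was -0.17 in WH against WP and -0.07 in TH against TP, beside 0.02 and 0.03 over all genes tested.

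Of 8 genes under clock control in many tissues (Usp2, Wee1, Nampt, Noct, Klf10, Klf15, Por and Alas1), 1 was called in the 5 tests, where 0.657% (TP against WP), 2.44% (TH against WH), 6.74% (WH against WP), 13.8% (TH against TP) and 1.76% (interaction) of all genes were, so that the list held no more calls than those shares give. Por, which encodes the electron donor of cytochrome P450 enzymes, fell from 121 and 171 CPM in WP to 68.5 and 84.4 in WH (log2 -0.93, SE 0.20, adjusted p = 0.0110), and was not called without WP replicate 2 (adjusted p = 0.172). The medians of this list were 0.27 for TP against WP, 0.17 for TH against WH, -0.06 for WH against WP and -0.38 for TH against TP, beside 0.00, 0.01, 0.02 and 0.03 over all genes tested.

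Genes that glucocorticoids induce were looked at because Per1 is one of their targets. The list of 12 was drawn up with the study's own tables of changed genes known. Its counts are therefore not independent evidence of a direction, nor of more calls than the share over all genes. In TP against WP 5 of the 12 were called higher, none lower, and 11 lay above 0, with a median of 0.67, where 0.657% of all genes were called in either direction and their median was 0.00. The 5 were Tsc22d3 (log2 1.115, adjusted p = 0.0103), Zbtb16 (1.17, adjusted p = 0.00697), Cdkn1a (1.124, adjusted p = 0.0174), Errfi1 (0.83, adjusted p = 0.00283) and Angptl4 (1.42, adjusted p = 0.00283). The paper lists all 5 as upregulated in the same comparison. Tsc22d3, Zbtb16 and Cdkn1a lost the call with a replicate block (adjusted p = 0.0768, 0.0762 and 0.0648). Tsc22d3 was not called without WP replicate 2 (adjusted p = 0.0760), nor was Zbtb16 (0.0554), and Cdkn1a was not called without WP replicate 1 (0.190). Per1 was at log2 -0.20 (SE 0.19, adjusted p = 0.782). In TH against WH, Tsc22d3 was the 1 gene called (1.71, adjusted p = 0.00998). With a library left out its log2 fold change ranged from 1.46 to 2.01. It lost the call without WH replicate 1 and without WH replicate 2, in fits that leave 1 WH library. In the HDM comparisons 2 of the 12 were called lower in wild type and 6 in transgenic mice, none higher, where 2.3% and 5.35% of all genes were called lower, so that the larger count in transgenic mice stood beside a larger share over all genes. For the interaction 3 of the 12 were called lower and none higher, where 1.76% of all genes were called in either direction. The summed level of the list was 1074 to 1097 CPM in WP, 1530 to 1807 in TP, 718 to 776 in WH and 837 to 849 in TH.

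Markers of cell types moved with the groups beside the clock genes. The summed level of 8 lung epithelial markers was 42046.5 to 49603 CPM in WP, 50746 to 73103 in TP, 21854 to 25472 in WH and 21699.7 to 30129 in TH, and that of 6 endothelial markers 1795 to 1817, 2166 to 2200.2, 1304 to 1328 and 889 to 1105. For 7 eosinophil markers it was 94.6 to 114 in WP, 116 to 127 in TP, 249.4 to 257 in WH and 169 to 185 in TH. For 8 skeletal muscle markers it was 3.72 to 8.41 in WP, 207 to 229 in TP, 116 to 122 in WH and 67.2 to 88.6 in TH, and for 8 thymocyte markers 105 to 106, 24.4 to 31.7, 43.6 to 63.2 and 43.7 to 52.2. For 7 cardiac muscle markers the sum was 308 to 349 in WP, 146 to 175 in TP, 197 to 214 in WH and 82.1 to 108 in TH. For 7 neutrophil markers it was 433 to 459, 184 to 211, 246 to 250 and 267 to 269.7, and for 6 adipocyte markers 213 to 255, 78.0 to 83.6, 100 to 110 and 122 to 166. The thymocyte sum does not describe its whole list. Rag1 was at 19.0 and 30.3 CPM in WP and at most 1.05 in any other library. Arpp21 was at 19.4 and 8.57 CPM in WP and at most 2.25 elsewhere. Outside WP, Rag2 was at most 0.317 CPM and Dntt at most 0.749. Cd4 was on average at 28.3 CPM in WP, 7.53 in TP, 32.0 in WH and 25.2 in TH. Of the neutrophil markers, 1 (Cd177) was called higher and 4 lower in WH against WP. Car3 was by mean the most abundant adipocyte marker in WP, at 160 CPM. In the TH libraries Plin1 was at 2.85 and 41.9 CPM and Fabp4 at 101 and 31.5. No marker of these lists was at 0 in all libraries, but the eosinophil marker Epx had 1 count, in TH replicate 2, under the floor of 3 counts. Ear2 was by mean the most abundant eosinophil marker, at 49.3 CPM in WP and 176 in WH, while Siglecf was at 12.1 and 8.53. In WH against WP, 6 eosinophil markers were tested, of which 5 lay higher and 1 lower, with 2 called higher. With HDM the lung epithelial, endothelial and cardiac sums were lower in each genotype, and the eosinophil sum was higher in each. The skeletal muscle sum was higher with HDM in wild type and lower in transgenic mice. The thymocyte, neutrophil and adipocyte sums were lower with HDM in wild type and higher in transgenic mice. The lung epithelial sum does not describe its whole list, since Scgb1a1, a secretory cell gene, was by mean the most abundant member, at 30629 CPM in WP on average and 11171 in WH. Of the 8 lung epithelial markers, 2 were called lower and 1 higher in WH against WP, and 3 lower and none higher in TH against TP. Of the 6 endothelial markers 2 and 4 were called lower, and of the 7 cardiac markers 1 in each, none higher. Sftpa1 alone of the 8 epithelial markers lay above 0 in both comparisons, at log2 0.61 and 0.21. Cldn5 alone of the 6 endothelial markers did so, at 0.07 and 0.50. Among the cardiac markers Myl4 lay above 0 in TH against TP (0.08). Cdh5 was by mean the most abundant endothelial marker, at 1022 CPM in WP. The part of these markers in the clock gene results was not tested.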

How the data were processed

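The 10 clock genes and the lists of other genes were chosen with earlier results of these data known. Pooled lung RNA was amplified and read from a single end by the authors, who used TopHat for alignment (mm10) and ShortRead for the sum over the coding region of a gene. Base calling with CASAVA 1.8 is named in the submitters' processing notes, and the version of TopHat is not given in the sources used here. The deposited counts are raw counts per Entrez gene. All per-library columns were used. Of the 23469 identifiers, 23372 were named from RefSeq GRCm38.p6, and 21146 had a transcript length in GENCODE M21 (the APPRIS principal transcript where there was one).

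Each comparison was fitted on its own 4 libraries with edgeR 4.0.16 in R 4.3.3 (quasi-likelihood test, TMM, filterByExpr with a minimum count of 10), and the interaction on all 8. P-values were adjusted by Benjamini-Hochberg over all genes tested, and a gene was called at an adjusted p under 0.05. The SE was taken as the log2 fold change, without sign, over the root of F. Groups did not overlap where every library of 1 group lay above every library of the other in CPM. The alternatives were RLE size factors, DESeq2 1.42.0, a fit of all genes with any count, a block for the replicate number, all 8 libraries in the fit, an offset for transcript length (a loess per library, span 0.5) with and without the block, library sizes without Rn45S and haemoglobin genes, and each library left out in turn. The 2 libraries of each group differed by more than sampling noise.

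Besides the 10 genes, the text names genes of the 2 clock lists called in any comparison, glucocorticoid-induced genes called between genotypes, the 5 genes nearest to Dbp and to Arntl, genes whose exons overlap a clock gene's, Ddah1, Xist and Ddx3y. Figures were drawn with matplotlib 3.10.9 in Python 3.11.15.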

Additional observations from a re-analysis of the deposited data

How the results depend on the processing

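Over the 11 to 15 alternatives of each, the values of the 10 clock genes and of the other named genes kept their direction and their side of the threshold in 741 cases, lost the call in 35, gained it in 15 and changed sign in 30, all of the last in values that were not called. The cause of a change was not tested, except that leaving out a library also leaves fewer samples.

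The number of clock genes called for TP against WP was 0, and 0 to 1 with a library left out. For TH against WH it was 0, but 1 (Nr1d2) with no low-count filter, with the replicate block, with all 8 libraries, with the length offset and block together, and by DESeq2, and 0 to 2 with a library left out. For WH against WP it was 2, but 1 (Nr1d1) with all 8 libraries and 1 with the length offset, and 0 to 3 with a library left out. For TH against TP it was 3, but 1 with the length offset, and 0 to 5 with a library left out. In that comparison it was 2 both with the length offset and block (Nr1d1 and Nr1d2) and with library sizes without Rn45S and haemoglobin genes, where Per2 had an adjusted p of 0.0501. For the interaction it was 0, but 1 (Per2) by DESeq2, and 0 to 1 with a library left out.

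With the length offset, and with the offset and block together, Clock changed sign in TH against WH (0.27 and 0.27), TH against TP (0.0552 and 0.0458) and the interaction (0.38 and 0.37), and Cry2 in TH against WH (0.11 and 0.037). With a library left out, the values of genes that changed sign ranged as follows. In TP against WP they ranged from -0.41 to 0.18 for Arntl, from -0.66 to 0.11 for Cry1, from -0.19 to 0.0226 for Clock and from -0.55 to 0.32 for Dbp (0.26 without TP replicate 1). In TH against WH they ranged from -0.24 to 0.0916 for Clock (0.08 without TH replicate 1), from -0.0149 to 1.0039 for Cry1 and from -0.62 to 0.42 for Cry2 (0.14 without WH replicate 2). In WH against WP Cry1 ranged from -0.46 to 0.31. In TH against TP Per3 ranged from -0.0566 to 0.21, Dbp from -0.0055 to 1.20 and Cry2 from -0.97 to 0.0493. In the interaction Clock ranged from -0.21 to 0.14 (0.09 without WP replicate 1), Arntl from -0.43 to 0.15 (0.04 without WH replicate 1) and Cry2 from -0.50 to 0.50 (-0.06 without WH replicate 1, -0.04 without TP replicate 1).

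The replicate numbers did not pair the libraries. Libraries of the same number in different groups had deviations from their group means that correlated at -0.0214 to 0.0317 over 15868 genes. The block changed the call of Nr1d2 in TH against WH and of 3 glucocorticoid-induced genes in TP against WP.

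Counts over all genes moved by more than 1.5 times in places. For TP against WP the 98 calls became 306 without the filter, 45 with the block, 191 with offset and block, 222 by DESeq2, and 75 to 432 with a library left out. For TH against WH the 370 calls became 1055, 625, 464 and 921 in the same order, 771 with all 8 libraries, 169 with the length offset (107 higher and 62 lower, against 279 and 91, and 292 and 172 with offset and block), and 6 to 1595 with a library left out. For WH against WP the 1020 calls became 1588 without the filter and 652 to 1661 with a library left out, and for TH against TP the 2079 became 277 to 2676. For the interaction the 279 became 675 without the filter, 689 by DESeq2 and 138 to 721 with a library left out. Its 167 higher and 112 lower calls became 128 and 129 with offset and block. Depth limits Dbp and Cry1 most, the least abundant of the 10.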

Other observations

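The genes whose pattern over the 8 libraries was nearest to that of a clock gene were sought among the 15868 genes that passed the filter, by the root mean square distance of log2 CPM after each gene's mean was taken away. Nearest to Dbp were Wtip (0.177 on the log2 scale), Kifc2 (0.234), Bbs7 (0.261), Ube2e2 (0.285) and Las1l (0.286). Nearest to Arntl, which varied less, were Smarcad1 (0.0934), Mecom (0.106), Gm10389 (0.109), Arid2 (0.118) and Zfp955b (0.118). None of these is a clock gene of the lists used here. Among the 10 clock genes the closest pairs were Arntl and Clock (0.273), partners in 1 complex, Per3 and Nr1d2 (0.278), and Clock and Per1 (0.302). A small distance describes these 8 libraries, which share the differences between pools in depth, transcript length and cell type markers.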
